A study of Sus scrofa with 45 samples.

Results

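MAOA, the gene of monoamine oxidase A, was followed through the blood of pigs fed 3 diets, on 45 one-colour arrays in 12 groups. It was selected on the whole blood contrast of HFCSD against control at 19 weeks, in which the study listed it among the transcripts that were lower, so that contrast is given below as a description and was not tested. MAOA was 1 of 1846 genes that could be named among 2857 of the 43603 probes, and 2 probes named it, A_72_P077386 and A_72_P396558, both annotated to NM_001001640. A further probe described as a bacterial monoamine oxidase was not counted.

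The animals were male Clawn miniature pigs kept free of specific pathogens. The control group ate standard dry feed, the HFCD group a diet rich in lard and cholesterol, and the HFCSD group the same additions with sucrose. Weeks are weeks of feeding. Blood came from the superior vena cava. Whole blood (33 arrays) was stabilised in PAXgene tubes at 10, 19 and 27 weeks, and white blood cells (12 arrays) were isolated with a LeukoLOCK kit at 27 weeks only. Each group held 4 arrays, except HFCSD whole blood at 19 weeks and both HFCD and HFCSD whole blood at 27 weeks, which held 3. The study fed 5 pigs per diet and bled them repeatedly. If the 3 or 4 arrays of a group are different pigs, groups on the same diet must share some animals across weeks and sample types. The labels do not tie arrays to pigs, so which arrays share an animal is not known. The number of arrays limits the precision of every value below.

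Monoamine oxidase A is a flavoenzyme of the outer mitochondrial membrane. It removes the amine of serotonin, noradrenaline and dopamine by oxidation and releases hydrogen peroxide. Its close relative monoamine oxidase B, encoded by the neighbouring gene MAOB in the RefSeq annotation of Sscrofa11.1, is the form found in platelets, whereas monocytes raise MAOA when they meet interleukin 4 or interleukin 13.

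The MAOA probes are 60 bases long and lie apart in the transcript, so they are shown here because the results differ between them. The names coding probe and 3′ probe below rest on stop codons and start positions, since neither was aligned to a genome. A_72_P396558 starts at base 1104 and 1 of its 3 reading frames is free of stop codons.
A_72_P396558: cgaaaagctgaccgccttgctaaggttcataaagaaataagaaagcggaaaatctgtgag
A_72_P077386 starts at base 1685, ends at base 1744 and has a stop codon in every frame; its first bases follow.
A_72_P077386: aattgacacctgtgtcatcagatcaccttt
The 3′ probe was well above background on 44 of 45 arrays and the other on 36, and both were positive and significant against background on all 45. Over the 33 whole blood arrays the probes had a Pearson r of 0.78, and 0.81 for deviations from the group means, as a description. Levels are normalized log2 intensity, and no level of one probe is set against the other.

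At 10 weeks the 3′ probe read 7.85, 6.85, 6.88 and 7.8 in control whole blood. In HFCD whole blood it read 6.82, 6.74, 7.13 and 7.37. In HFCSD whole blood it read 6.28, 7.1, 6.88 and 7.35. The groups overlapped, since control replicates 2 and 3 lay among the diet arrays and control replicates 1 and 4 above them. The limma fit over all probes that passed the filter gave a difference from control of -0.33 (SE 0.30, 95% interval -0.98 to 0.31, adjusted p = 0.678, 2 of 4 arrays below every control) for HFCD. For HFCSD it was -0.44 (SE 0.29, 95% interval -1.08 to 0.2, adjusted p = 1, 1 of 4 arrays below every control). Of the probes tested, 0.0281% were called for HFCD and 0.0123% for HFCSD. Within slides the HFCD difference was -1.04 on slide 1, 0.08 on slide 2 and 0.03 on slide 3, and the HFCSD difference was -1.16, 0.03 and 0.01, so only slide 1 held a difference beyond 0.1. With slide as a block they were -0.23 and -0.38, and leaving out single arrays gave -0.5 to -0.16 and -0.61 to -0.23. Over the other settings they ran from -0.6, with a covariate for the spots well above background, to -0.21 with normexp for HFCD, and from -0.55 to -0.21 with the same settings for HFCSD.

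**Figure D1:**
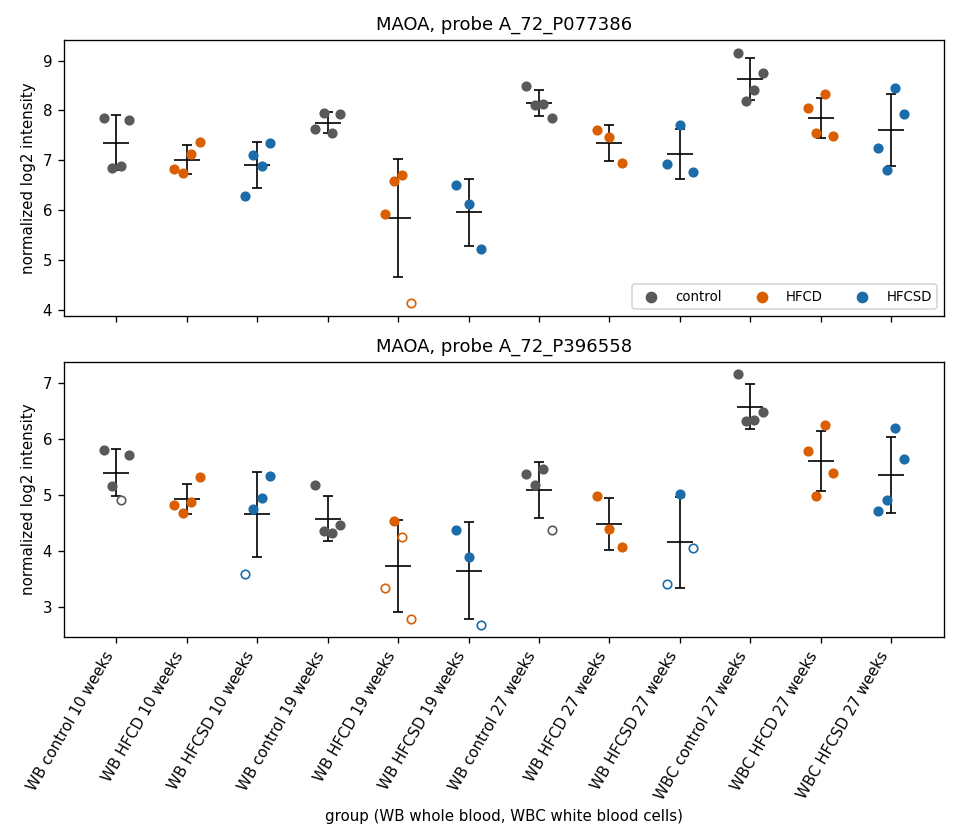
Normalized log2 intensity (y axis) of the 2 MAOA probes on each array, by group (x axis; WB whole blood, WBC white blood cells). Points are arrays, open where the probe was not well above background; bars are the mean ± SD; at 19 and 27 weeks of whole blood every HFCD and HFCSD point of probe A_72_P077386 lies below every control point, and at 10 weeks they overlap. The HFCSD and control arrays of 19 weeks chose the gene.

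At 19 weeks the control arrays read 7.62, 7.94, 7.54 and 7.92. The HFCD arrays read 5.92, 6.58, 6.71 and 4.13, the last not well above background. The HFCSD arrays, on which the gene was chosen together with these controls, read 6.51, 6.13 and 5.21. Every diet array lay below every control array, and HFCD replicate 4 was the lowest of all 45. The HFCSD difference was -1.80 (SE 0.55), or 3.48-fold lower, and 7.53% of the probes tested were likewise lower on every HFCSD array; nothing is read from either, since this contrast chose the gene. HFCD used the same 4 control arrays, so its difference of -1.92 (SE 0.51, 3.78-fold lower) is not independent of that choice. It is given as a description and no p is read from it, although a test had been planned. With normexp background correction it was -0.95. Over all probes tested in that comparison limma called 0.0181%, and 4.04% were lower on every HFCD array. Control replicate 1 was scanned on the same day as all the diet arrays and control replicates 2 to 4 on another; within the shared day the differences were -1.78 for HFCD and -1.67 for HFCSD, against that 1 control array. With scan day as a block the HFCD difference was -1.78. With slide as a block it was -1.04, which rests on slide 4, the only slide with a control and an HFCD array, and without HFCD replicate 4 it was -1.35.

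At 27 weeks, on arrays that had no part in choosing the gene, control whole blood read 8.5, 8.11, 8.13 and 7.85. HFCD whole blood read 7.61, 7.47 and 6.94. HFCSD whole blood read 6.93, 7.7 and 6.77. If the arrays of a group are different pigs, some control and HFCSD pigs here also gave arrays that chose the gene. The HFCSD contrast is then not independent of the choice of the gene, and neither is the HFCD contrast, which shares the controls. All 6 diet arrays lay below all 4 controls, the nearest being HFCSD replicate 2 under control replicate 4. MAOA was lower with HFCSD than in controls by 1.01 on the log2 scale (SE 0.29, 95% interval -1.64 to -0.38, 2.02-fold lower), with an adjusted p of 0.0478 in limma. The median difference over all probes tested was -0.21. In that comparison 10.6% of all probes tested were called, and 16.3% were lower on every HFCSD array, so a call there was common among probes. The call was narrow: it was lost when any 1 of 6 of the 7 arrays was left out (every array but control replicate 4; adjusted p between 0.0599 and 0.156), with slide as a block (-0.85, adjusted p = 0.113) and with a covariate for how many spots of each array were well above background (-0.76, adjusted p = 0.334). The percentage of such spots was 39.6%, 38.8% and 39.6% on the HFCSD arrays and 50.1%, 49.4%, 46.4% and 38.9% on the controls, and its part in the result was not tested. Within slides the HFCSD difference was -0.41 on slide 12 and -1.28 on slide 13.

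The HFCD difference at 27 weeks, against the same control arrays, was -0.81 (SE 0.29, 95% interval -1.45 to -0.18, adjusted p = 0.893, 3 of 3 arrays below every control), with 0.0165% of probes called and 4.41% lower on every HFCD array. On slides 11 and 12 it was -0.7 and -0.84, and -0.92 with slide as a block. Exact permutation, two-sided, gave p = 0.0571 for each diet, the smallest possible with 3 against 4 arrays.

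In white blood cells at 27 weeks the control arrays read 9.16, 8.18, 8.42 and 8.76. The HFCD arrays read 8.05, 7.54, 8.34 and 7.48. The HFCSD arrays read 7.24, 6.81, 8.45 and 7.92. In each diet 1 of 4 arrays, replicate 3, reached the range of the controls and the other 3 lay below it. The differences were -0.78 (SE 0.35, 95% interval -1.54 to -0.02, adjusted p = 0.997) for HFCD and -1.03 (SE 0.35, 95% interval -1.79 to -0.26, adjusted p = 0.347) for HFCSD, neither past the limma threshold, where 0.0276% and 0.0366% of probes were called. Within slides 14, 15 and 16 the HFCD difference was -0.62, -0.42 and -0.88, and the HFCSD difference was -2.15, 0.27 and -0.84. With slide as a block they were -0.77 and -0.96. Fewer cells of a type and less RNA per cell cannot be told apart in such bulk samples.

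**Figure D2:**
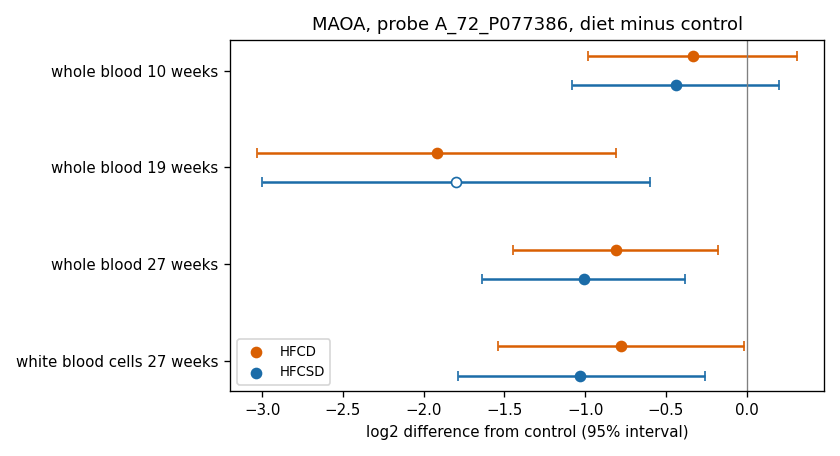
Log2 difference from control of MAOA probe A_72_P077386 (x axis, with its 95% interval) for each diet, sample type and week (y axis). The open point, HFCSD at 19 weeks, is the contrast that chose the gene, and HFCD at 19 weeks shares its control arrays, so nothing is read from either. The other differences run from -0.33 to -1.03, and the intervals at 10 weeks cross 0. Within a sample type and week both diets are set against the same control arrays, so their signs are not separate results.

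The coding probe, A_72_P396558, was well above background on 24 of the 33 whole blood arrays. At 10 weeks it ranged from 4.91 to 5.79 in controls, 4.68 to 5.31 in HFCD and 3.58 to 5.34 in HFCSD. At 19 weeks these ranges were 4.32 to 5.17, 2.77 to 4.53 and 2.68 to 4.37. At 27 weeks they were 4.37 to 5.46, 4.06 to 4.97 and 3.41 to 5.01. The groups overlapped at every week of whole blood, and only 1 of 4 HFCD arrays at 19 weeks and 1 of 3 HFCSD arrays at 27 weeks were well above background. Its HFCD differences were -0.47 (SE 0.34, adjusted p = 0.621) at 10 weeks and -0.62 (SE 0.41, adjusted p = 0.965) at 27 weeks in limma, and -0.86 (SE 0.45) at 19 weeks, as a description. Within the scan day that the diet arrays of 19 weeks shared with control replicate 1, which lay above all of them, the differences were -1.45 for HFCD and -1.53 for HFCSD. The HFCSD comparisons at 10 and 27 weeks left this probe out, because neither group had it well above background on all its arrays, so the call at 27 weeks rests on the 3′ probe alone; the plain differences of means there were -0.74 and -0.94.

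In white blood cells the coding probe was well above background on all 12 arrays. It read 7.15, 6.31, 6.34 and 6.47 in controls. It read 5.78, 4.98, 6.24 and 5.39 under HFCD. It read 4.7, 4.9, 6.18 and 5.63 under HFCSD. Every diet array lay below every control array, as held for 1.0% of probes tested with HFCD and 2.25% with HFCSD. The differences were -0.97 (SE 0.36, adjusted p = 0.978) and -1.22 (SE 0.36, adjusted p = 0.297), and did not pass the limma test.

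Added sucrose was addressed by HFCSD against HFCD. For the 3′ probe the difference was -0.11 (95% interval -0.76 to 0.54, adjusted p = 0.916) at 10 weeks, -0.2 (-0.88 to 0.48, adjusted p = 0.755) at 27 weeks and -0.25 (-1.01 to 0.52, adjusted p = 1) in white blood cells. At 19 weeks it was 0.12 (SE 0.55), as a description, and its sign was not stable, with -0.45 to 0.49 when single arrays were left out. The intervals leave room for a difference of up to about 1 on the log2 scale. In limma 0.0%, 0.0111% and 0.0% of probes were called in the 3 tested contrasts. An unadjusted limma p under 0.05 was held by 886 probes at 10 weeks, 2259 at 27 weeks and 407 in white blood cells.

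Sample type was compared at 27 weeks, with kit and scan day changing along with it, so that these cannot be told apart from the cells. The 3′ probe differed between white blood cells and whole blood by 0.48 (SE 0.32, adjusted p = 0.236) in controls, 0.51 (SE 0.35, adjusted p = 0.236) with HFCD and 0.47 (SE 0.35, adjusted p = 0.256) with HFCSD, none past the threshold. The coding probe differed by 1.13 (SE 0.41, adjusted p = 0.0313) with HFCD, past the threshold, so the probes of MAOA disagreed there on the call. In controls and with HFCSD it differed by 1.48 (SE 0.38) and 1.20 (SE 0.41), given without a test, because it entered the fit only through the white blood cells, being well above background on 3 of 4 and 1 of 3 of the whole blood arrays. Of all probes, 45.3%, 47.5% and 58.8% were called in controls, HFCD and HFCSD. Between sample types the diet effect differed by 0.03 (95% interval -0.97 to 1.03, adjusted p = 1) for HFCD and -0.01 (-1.02 to 0.99, adjusted p = 0.993) for HFCSD, and by -0.35 and -0.27 on the coding probe. These intervals are as wide as the diet effects, so a difference of that size cannot be told from none. limma called 0.0% and 1.38% of probes, with 267 probes at an unadjusted p under 0.05 for HFCD and 3922 for HFCSD.

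Between 10 and 27 weeks of whole blood, each week scanned on its own day, the 3′ probe differed by 0.8 (SE 0.39, adjusted p = 0.144) in controls, 0.33 (SE 0.43, adjusted p = 0.721) with HFCD and 0.23 (SE 0.43, adjusted p = 0.765) with HFCSD. None passed the limma test, although 20.7%, 5.6% and 10.3% of probes did. The coding probe gave -0.45 (SE 0.45) with HFCD, the opposite sign. In controls and with HFCSD it did not pass the filter and was not tested. Its means there were also lower at 27 weeks, at 5.39 and then 5.09 in controls and 4.65 and then 4.15 with HFCSD. The change in the diet effect from 10 to 27 weeks was -0.48 (95% interval -1.67 to 0.72, adjusted p = 0.955) for HFCD and -0.57 (-1.76 to 0.62, adjusted p = 0.596) for HFCSD, where limma called 0.0% and 0.0% of probes, with 521 and 2664 at an unadjusted p under 0.05. A larger diet effect at 27 than at 10 weeks was therefore not shown.

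The order of the 3′ probe's group means ran from white blood cells of controls (8.63 ± 0.42, SD, n = 4) through whole blood of controls at 27 weeks (8.15 ± 0.27), white blood cells of HFCD (7.85 ± 0.41), whole blood of controls at 19 weeks (7.75 ± 0.21), white blood cells of HFCSD (7.61 ± 0.73) and whole blood of controls at 10 weeks (7.35 ± 0.55). It went on with whole blood of HFCD (7.34 ± 0.36) and HFCSD (7.13 ± 0.5) at 27 weeks, of HFCD (7.01 ± 0.29) and HFCSD (6.9 ± 0.46) at 10 weeks, and of HFCSD (5.95 ± 0.67) and HFCD (5.84 ± 1.19) at 19 weeks. Neighbours differed by more than the larger of their SDs only at the top step, by 0.48, and between 10 weeks HFCSD and 19 weeks HFCSD, by 0.95. The gene was chosen on those HFCSD arrays of 19 weeks, so nothing is read from the latter step.

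MAOB had 2 probes. A_72_P108421 was well above background on 0 of 45 arrays, and A_72_P146441 on 41. The latter differed from control by -0.2 (SE 0.32), -0.33 (SE 0.27) and -0.18 (SE 0.42) with HFCD at 10, 19 and 27 weeks of whole blood, and by -0.19 (SE 0.2) with HFCD and -0.46 (SE 0.2) with HFCSD in white blood cells. With HFCSD at 10 weeks it was -0.02 (SE 0.32). None was called, and under HFCSD the probe was not tested in whole blood at 27 weeks, where it did not pass the filter. At most 0.0366% of all probes were called in the comparisons that tested it, so the absence of a call says little about MAOB.

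The list of monoamine breakdown genes besides MAOA, which includes MAOB, had 5 of 13 members on the array, with 13 probes. With HFCD at 10, 19 and 27 weeks of whole blood and in white blood cells their median differences were -0.28, -0.45, -0.49 and -0.53, against 0.09, -0.03, -0.03 and 0.02 over all probes. With HFCSD at 10 and 27 weeks and in white blood cells they were -0.17, -0.35 and -0.7, against -0.01, -0.21 and 0.01. None was called, where 10.6% of all probes were called for HFCSD at 27 weeks and at most 0.0366% in the other comparisons, so the absence of a call says little about a short list. ALDH2, the mitochondrial aldehyde dehydrogenase, had -0.89 (SE 0.3) and 0.07 on its 2 tested probes with HFCSD at 27 weeks, which disagreed. SULT1A1, a sulfotransferase of phenols and amines that the RefSeq table calls SULT1A3, had -0.73, -0.8, -0.8 and -0.25 on its 4 probes there. The aldo-keto reductases AKR1A1 and AKR1B1 had 0.66 and 0.29, and 0.45 and -0.44. Monoamine synthesis had 2 of 10 members on the array, DDC and DBH, transport 2 of 9 and the receptors 12 of 28; at most 3 probes of any of these lists were tested in a comparison, and none was called, beside the same shares over all probes. DBH, which makes noradrenaline, differed by 1.78 (SE 0.53, adjusted p = 0.0559) at 27 weeks with HFCSD and the receptor ADRB1 by 2.14 (adjusted p = 0.0545). No member of the 4 other FAD amine oxidases was named on the array.

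Of the regulators of MAOA transcription, 4 of 8 were on the array. GATA2, a zinc finger factor, was higher with HFCSD than in control whole blood at 27 weeks by 2.35 (SE 0.42, adjusted p = 0.0191 in limma). NR3C1, the glucocorticoid receptor, and SIRT1, a deacetylase, had -0.35 and -0.89 without a call. Of the interleukin 4 and interleukin 13 list 4 of 9 were on the array. IL4R, the interleukin 4 receptor chain, was higher by 2.89 (SE 0.51, adjusted p = 0.0186) in the same comparison, while ALOX15, a lipoxygenase, had -0.84 (adjusted p = 0.154). These were the only calls in the pathway lists over the 7 comparisons, and in the comparison that holds them 10.6% of all probes were called. In white blood cells at 27 weeks GATA2 had 0.02 and IL4R -0.38 with HFCSD, and 0.15 and -0.16 with HFCD. Neither gene was called there, where at most 0.0366% of all probes were called.

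Cell markers were set beside MAOA, and their part in its values was not tested. Platelet markers (4 of 11 listed genes, 5 probes, ITGA2B the most abundant) had median differences of -0.85, -1.72 and -1.12 with HFCD at 10, 19 and 27 weeks of whole blood, -1.11 in white blood cells, and -0.06, -1.24 and -0.47 with HFCSD at 10 and 27 weeks and in white blood cells. None of the 5 was called, where 10.6% of all probes were called for HFCSD at 27 weeks and at most 0.0366% in the other comparisons. The probes' linear intensities were also summed and the log2 of the sum taken, so that the brightest probes weigh most. The log2 of the sum was 14.05, 14.16, 14.43 and 14.13 on the control arrays of whole blood at 27 weeks, 13.08, 13.49 and 13.11 on the HFCD arrays and 14.34, 13.72 and 11.79 on the HFCSD arrays. On white blood cell arrays it was 10.26, 15.71, 15.75 and 15.94 in controls, 14.68, 9.49, 13.54 and 15.27 with HFCD and 15.49, 14.93, 12.83 and 12.26 with HFCSD. The white blood cell sums spread widely within each group. In whole blood at 27 weeks the HFCD sums all lay below the controls, as held for 4.41% of single probes tested there. At 10 and 19 weeks they overlapped. HFCD replicate 1 had 13.59 against 13.57 in control replicate 1 at 10 weeks. At 19 weeks HFCD replicate 3 had 14.09 against 13.89 in control replicate 2.

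Other markers were set against HFCSD and control at 27 weeks of whole blood. Monocyte markers (3 of 6 genes, LYZ the most abundant) had a median of 0.04 over 6 probes, neutrophil markers (2 of 10, MMP9) 0.21 over 2, and T cell markers (6 of 9, CD3D) 0.01 over 8. Members lay on both sides of these medians: LYZ had -0.58, MMP9 -0.3 and CD3D -0.5 and 0.03 on its 2 tested probes, none called. The log2 of the summed monocyte marker intensity was 13.54 ± 0.28 (SD, n = 4) in controls and 13.1 ± 0.52 (n = 3) with HFCSD. No erythroid marker was named. Smooth muscle and vessel wall markers (9 of 15, DES) had -0.94 over 10 probes, also with members on both sides. Of these 2 were called higher, where 10.6% of all probes were called, and 1 of them was DES at 2.04 (SE 0.36, adjusted p = 0.0186), whose other tested probe had 0.65 without a call. Endothelial markers (4 of 5, PECAM1) had -0.36 over 5, liver markers (7 of 10, TF) 0.19 over 2 and adipose markers (4 of 4, LEP) -0.47 over 1, with 0 called in each. Of the liver list 8 of 15 probes were not well above background on any array.

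In the other comparisons at most 0.0366% of all probes and no marker were called, so that count says little about the markers. With HFCD at 10, 19 and 27 weeks of whole blood and in white blood cells the smooth muscle medians were -0.87, -1.19, -1.25 and -0.87, the endothelial medians -0.6, -0.7, -0.45 and -0.63 and the monocyte medians 0.37, -0.48, 0.46 and 0.1. With HFCSD at 10 weeks and in white blood cells they were -0.24 and -0.71, -0.04 and -0.47, and 0.17 and -0.19. In the same HFCD comparisons the neutrophil medians were -0.11, 0.05, 0.53 and 0.78 and the T cell medians 0.12, 0.65, -0.02 and 0.22. In the HFCSD comparisons they were 0.41 and 0.42, and -0.03 and 0.22. Liver medians were -0.57, -0.46, -0.28 and -0.46 with HFCD and -0.08 and -0.3 with HFCSD, and adipose medians 0.21, -0.76, -0.21 and -0.17, and -0.63 and -0.29.

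The genes whose levels most resembled the 3′ probe over the 33 whole blood arrays, among 1747 named probes, were LGALS3, the lectin galectin-3 (Pearson r = 0.88), TUBA1B, an alpha tubulin (0.88), MBP, known from myelin (0.85), SULT1A3 (0.83), which is 1 of the 4 probes given above as SULT1A1, and ITM2A, a membrane protein (0.83). Those most opposed were SOD1, the cytosolic superoxide dismutase (-0.66), ACLY, which makes acetyl-CoA from citrate (-0.64), and DHRS4, a reductase (-0.61). The values are a description and include the differences between the groups. With group means removed, r was 0.79, 0.79, 0.74, 0.77 and 0.76 for the first set and -0.41, -0.36 and -0.06 for the second.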

How the data were processed

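Whole blood and white blood cell RNA was hybridised to one-colour Agilent pig arrays. The authors deposited scanner output of spot intensity, made with Feature Extraction (9.5.3.1 per the labels; the file headers give another release), and a table of normalized intensity, which they quantile normalized in GeneSpring. The table is linear with medians near 0.1, and its centring is not given in the sources used here. Here gProcessedSignal was log2 transformed, with quantile normalization across the 45 arrays together; 1417 control spots and outlier spots were left out and repeated spots averaged. A probe entered a comparison if well above background on every usable array of at least 1 compared group. limma 3.58.1 (lmFit, eBayes) was fitted over all such probes, two-sided, with Benjamini-Hochberg adjustment and a threshold of 0.05. Single values were tested by exact permutation. HFCD against control at 19 weeks, planned as a test, is given as a description, since its control arrays helped to choose the gene. The limma code was checked on simulated data.

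Accessions and symbols were matched to the RefSeq table of Sscrofa11.1: 2032 probes by accession, 693 by symbol and 132 by synonym. Members and lists were chosen with earlier results of these data known. The named genes are each MAOA probe, pathway members with a probe well above background on all arrays of at least 1 group, the most abundant gene of each marker list, and the 5 highest and 3 lowest Pearson r with A_72_P077386 among named probes well above background on at least 50% of the arrays. Scan days and slides were numbered in order of use. P-values measure the spread between arrays, and groups on the same diet in part share pigs if the arrays of a group are different animals.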

Additional observations from a re-analysis of the deposited data

Results flagged for a closer look

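Among 36 sets of 4 arrays (both MAOA and both MAOB probes in 9 groups), 3 held an array far from the others, and chance gives about 1 in 20. The coding MAOA probe A_72_P396558 read 5.17 in control whole blood replicate 1 at 19 weeks, the control scanned on the same day as the diet arrays. The MAOB probe A_72_P108421 read 3.21 in control replicate 1 at 10 weeks and 3.16 in HFCD replicate 4 at 19 weeks, in both cases not well above background.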

How the results depend on the processing

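The 22 MAOA differences were recomputed under 445 alternatives. Of these, 400 kept their direction and their side of the threshold or, for the HFCSD contrasts at 19 weeks, moved by less than 0.8. HFCD at 19 weeks was counted by its planned test. The count includes the contrast that chose the gene and those sharing its arrays. No stability of the differences at 19 weeks is read from it. Of the tested differences only HFCSD in whole blood at 27 weeks was called in the main fit. For the others, staying without a call says little. All 13 alternatives that lost a call belonged to that HFCSD difference. The HFCSD difference in whole blood at 27 weeks lost its call at -1.01 with no filter (adjusted p = 0.0918), with the positive and significant flag (0.0638), with only the groups compared (0.0583), with all 12 groups in 1 fit (0.0984) and with the methods' test (0.115), at -0.85 with slide as a block and at -0.76 with a covariate for how many spots of each array were well above background; leaving out single arrays gave -1.3 to -0.83. Why the call was lost was not tested. HFCD at 19 weeks, whose control arrays helped to choose the gene, stayed at -1.92 with all 12 groups in 1 fit, and its p there is not read; it moved by more than 0.8 with normexp (-0.95), slide as a block (-1.04) and the coding probe (-0.86). The HFCSD difference at 19 weeks, untested, moved to -0.93 with normexp, to -0.67 with slide as a block and to -0.93 with the coding probe.

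The coding probe, an alternative chosen after seeing the data, gave 1.13 for white blood cells against whole blood with HFCD, past the threshold, and 1.48 and 1.2 in controls and HFCSD, not read as calls because the white blood cells alone admitted it, and reversed signs at -0.45 for HFCD between 10 and 27 weeks and -0.35 for the HFCD effect between sample types. Differences near 0 and without a call changed sign: HFCSD against HFCD to 0.05 at 10 weeks and 0.05 at 27 weeks with the covariate, and to 0.07 at 27 weeks with slide as a block; HFCSD between 10 and 27 weeks to -0.03 with normexp; the diet effect between sample types to -0.02 for HFCD with 75th percentile scaling and to 0.04 for HFCSD with normexp. Leaving out single arrays gave -0.26 to 0.1 and -0.53 to 0.02 for HFCSD against HFCD at 10 weeks and in white blood cells, -0.05 to 0.41 for HFCSD over time, and -0.17 to 0.21 and -0.29 to 0.27 for the HFCD and HFCSD effects between sample types.

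With the replicate block the HFCSD effect between sample types was 0.01 and HFCSD against HFCD at 19 weeks -0.14, from 0.12 (-0.07 with the covariate), and the block changed no call; HFCSD at 27 weeks was -1.11 (adjusted p = 0.0458). Same-numbered arrays had r from -0.44 to 0.62, over 0.1 in 12 of 20 pairs. Whether they share a pig is not known, so they were not taken as pairs.

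With no filter, 2 probes were called for HFCD at 10 weeks against 5, 5 against 3 at 27 weeks, 2 against 5 in white blood cells and 453 against 1824 for HFCSD at 27 weeks. The methods' test with adjustment called 142 there. Of the 8 genes with the highest and lowest correlation with MAOA, 3 were shared over all 45 arrays and 1 with group means removed. Signal close to background limits the coding probe.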
